A study of Mus musculus with 4 samples.

Results

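The metallothioneins and the zinc-handling genes around them were described here in kidneys of mice 3 days after ischemia-reperfusion (I/R). The 8 genes were taken by name from a table of 54078 features: Mt1 and Mt2, which encode the metallothioneins, Mtf1, which encodes the zinc-sensing transcription factor, the exporters Slc30a1 and Slc30a10, and the importers Slc39a5, Slc39a8 and Slc39a14. Poly-A selected RNA was sequenced from 4 pools, each of RNA from 3 male adult mice, 2 pools per group. KO mice carried floxed Apela alleles and Cre under the Ksp-cadherin promoter, which is active in renal tubular epithelium, so that Apela, the gene of the peptide elabela, was deleted there. WT mice were littermates with the same floxed alleles and no Cre. Both groups had their renal vessels clamped on both sides for 30 min, and kidneys were taken at day 3; no uninjured kidney is among the 4 libraries, so each level is one of injured tissue. The labels give the strain as C57BL/6 x 129S4/SvJae, while the study's methods give C57BL/6 mice. The comparison asks how RNA levels in the injured kidney differ when the tubule lacks Apela.

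Metallothioneins are small cysteine-rich proteins that bind zinc and copper in the cytoplasm and buffer the free metal, and they also bind cadmium. When free zinc rises, MTF1 binds it through its zinc fingers, enters the nucleus and binds metal response elements upstream of the metallothionein genes and of Slc30a1. Proteins of the Slc30 (ZnT) family move zinc out of the cytoplasm, across the plasma membrane or into vesicles, and proteins of the Slc39 (ZIP) family move it in. In the kidney, metallothioneins are best known from the proximal tubule, where they hold zinc and cadmium, and their genes also respond to glucocorticoids, inflammatory cytokines and oxidative stress.

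The 4 libraries held between 16045724 and 16927742 reads on genes. Proximal tubule markers summed to an FPKM of 5480 or more in every pool, while those of adipose tissue, which the series' design text names as the source, summed to an FPKM of 0.387 or less, with Ucp1 listed at 0. FPKM scales fragments by gene length and by the library's total, so it can be compared between genes. The targeted gene went with the labels: Apela was at 5.27 and 4.57 FPKM in the WT pools and at 0.536 and 0.245 in the KO pools, which is 85, 79, 9 and 4 reads. Its log2 fold change was -2.62 (SE 0.22), with an adjusted p of 0.466. WT2 stood apart in macrophage and fibroblast markers. Its summed FPKM was 292 for 7 macrophage markers, against 112 to 136 in the other pools. For 4 fibroblast markers it was 222 against 108 to 147. Other pools stood out in other lists, such as KO1 for 3 red blood cell markers, at 58.5 against 111 to 162. For Mt1, Mt2 and several other genes the difference is therefore also given without WT2. In whole-kidney RNA, fewer cells of a type and less RNA per cell cannot be told apart.

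Mt1 and Mt2 lie next to each other on the forward strand of chromosome 8 (GRCm38), and the 250 bases before the RefSeq start of each are shown because these are the members that differed most between the groups. Capitals mark the core of the metal response element, spelled TGCACNC or TGCGCNC and searched on both strands, so that a core on the reverse strand reads, for example, GTGTGCA. The Mt2 window is chr8:94172368-94172617 and the Mt1 window chr8:94178839-94179088, both on the forward strand of GRCm38.p6.
Mt2: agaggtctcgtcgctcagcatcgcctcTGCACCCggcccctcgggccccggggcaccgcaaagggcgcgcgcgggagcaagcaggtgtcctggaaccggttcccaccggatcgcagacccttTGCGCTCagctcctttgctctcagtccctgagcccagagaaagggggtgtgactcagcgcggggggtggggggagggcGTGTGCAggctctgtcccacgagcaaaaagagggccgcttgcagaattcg
Mt1: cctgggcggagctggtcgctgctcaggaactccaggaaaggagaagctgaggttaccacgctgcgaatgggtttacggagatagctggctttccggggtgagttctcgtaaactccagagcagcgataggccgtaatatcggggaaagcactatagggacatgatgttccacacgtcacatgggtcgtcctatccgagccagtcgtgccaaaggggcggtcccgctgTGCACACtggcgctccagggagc
The Mt2 window held 3 cores, at 223, 128 and 50 bases before the start, and the Mt1 window held 1, at 23 bases before it. Of 32536 such windows in RefSeq, 21.5% held at least 1 core and 1.28% held at least 3. The Mt2 window also held 1 antioxidant response element core (TGACNNNGC), at 79 bases before the start and apart from the other cores, which 10.2% of the windows share. Windows of Slc30a1, Slc39a8 and Slc39a5 held that core as well, 1, 1 and 2 times. None of the windows of the members held the letters TTCNNNGAA, a spelling of the STAT site that 7.04% of the windows held.

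RefSeq and GENCODE M21 place several starts at these genes. In GENCODE, Mt1 has 3 transcripts, of which the others begin 129 and 159 bases after the first. The first 200 bases of the longest-reaching Mt1 transcript held 4 cores, at its bases 10, 28, 92 and 106, counting the first base as 1, followed by the letters TATAAA at base 129, and all 4 lie before the other annotated starts. The stretches around them are shown with the core in capitals, since they carry the sites in the exon that the promoter window stops short of.
Mt1 at chr8:94179091-94179097: agggagctcTGCACTCcgcccgaaaa
Mt1 at chr8:94179109-94179115: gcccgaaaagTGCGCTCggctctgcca
Mt1 at chr8:94179173-94179179: accgcctgctGGGTGCAaaccctttgc
Mt1 at chr8:94179187-94179193: gcaaacccttTGCGCCCggactcgtcc
In the same way, the longer of the 2 Mt2 transcripts held 3 cores in its first 200 bases, at bases 13, 32 and 66, with TATAAA at base 90, and the other begins 196 bases after it.
Mt2 at chr8:94172676-94172682: gaaaaagggcGTGTGCAggcggcgggg
Mt2 at chr8:94172695-94172701: cggcgggggcGCGTGCAtggtgccttc
Mt2 at chr8:94172729-94172735: gcggagctttTGCGCTCgacccaatac
The other annotated transcripts of Mt1 and Mt2 held no core in their first 200 bases. Among 55220 protein-coding transcript starts, later starts of a gene included, 18.9% held at least 1 core in the first 200 bases, 0.581% at least 3 and 0.103% at least 4. Of the other members, Slc30a1 had 1 core in its 250-base window, at 43 bases before the start. It also had 1 within its longer transcript, at base 45 (chr1:191906811-191906817). Slc30a10 had 3 matches in its window, 2 of them overlapping on opposite strands. Slc39a5 and Slc39a8 each had 1 in 1 of 2 RefSeq windows, and Mtf1 had none in its window. Cores within transcripts were looked up by gene for Mt1, Mt2 and Slc30a1 only. RefSeq windows were matched for 7 of the 8 members, Slc39a14 being the other. A match of letters is a description of the sequence and not evidence of binding.

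**Figure D1:**
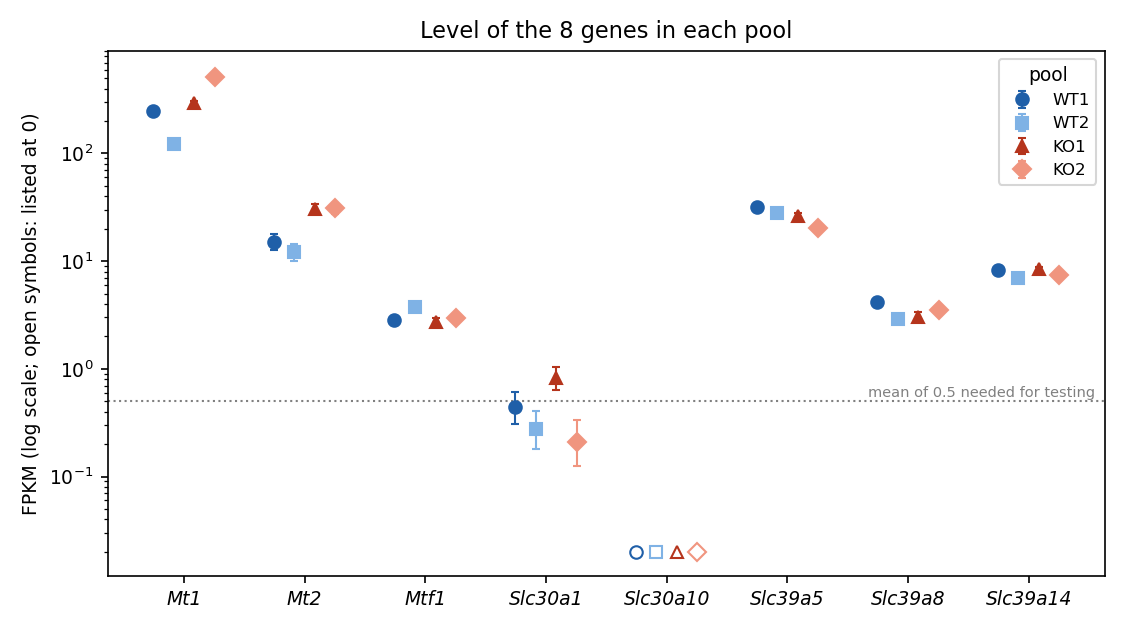
FPKM on a log scale (vertical axis) of the 8 genes (horizontal axis) in the 4 pools, where bars are 95% Poisson intervals for counting error only and open symbols at the bottom stand for a value of 0. Mt1 and Mt2 were higher in both KO pools than in both WT pools, Slc39a5 was lower in both, and the pools of the other genes overlapped or were at 0.

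Mt1 was the most abundant of the 8 genes in every pool, and both KO pools lay above both WT pools. Mt1 (ENSMUSG00000031765, chromosome 8, 94179082 to 94180327) was at 246.7 FPKM in WT1, 122.0 in WT2, 296.9 in KO1 and 511.9 in KO2, from 4940, 2616, 6188 and 10356 reads. The group means were 184 ± 88.1 FPKM in WT and 404 ± 152 in KO (SD, n = 2 pools). The gap between the groups was narrow beside the spread within them: KO1, the lower KO pool, was 1.20 times WT1, while WT1 was 2.02 times WT2 and KO2 was 1.72 times KO1. On log2(FPKM + 0.5), the scale of all fold changes here, KO exceeded WT by 1.17 (SE 0.45, 95% interval -0.01 to 2.35), with an unadjusted p of 0.0519 and a Benjamini-Hochberg adjusted p of 0.785 in limma. Without WT2 the difference was 0.66 (adjusted p 0.992), without KO2 it was 0.77 (adjusted p 0.983), and both leave-out fits take the lone pool to vary like the other group. By mean level Mt1 stood at rank 103 of the 15414 genes tested, and it took between 0.0163% and 0.0617% of the reads of a library.

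Mt2 showed a difference of the same size with less spread between pools. Mt2 (ENSMUSG00000031762, chromosome 8, 94172664 to 94173568) was at 15.1 FPKM in WT1, 12.2 in WT2, 30.5 in KO1 and 30.9 in KO2, from 143, 123, 300 and 295 reads. The KO pools were nearly equal to each other, and the lower of them was 2.02 times the higher WT pool. Counting error, as a 95% Poisson interval, reached up to 17.8 FPKM in WT1 and down to 27.1 in KO1, so the groups stayed apart when it was allowed for. The group means were 13.6 ± 2.10 FPKM in WT and 30.7 ± 0.281 in KO (SD, n = 2 pools), a difference of 1.15 on the log2 scale (SE 0.14, 95% interval 0.77 to 1.53). With limma the unadjusted p of Mt2 was 0.000707, rank 21 among all genes, and the adjusted p was 0.466, which did not pass the threshold of 0.05. Without WT2 the difference was 1.00, with an adjusted p of 0.903.

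No gene of the 15414 tested passed an adjusted p of 0.05 (0% called), the lowest being 0.466, so this also holds for each of the 6 members that could be tested. With no adjustment 974 genes had a p under 0.05, 3.29% of those tested being higher in KO and 3.03% lower, and among the 6 members Mt2 was the 1 that reached it. The pools did not overlap for many genes: 19.7% of those tested had the KO pools higher and 18.1% had them lower. Of the 6 members, Mt1 and Mt2 lay above and Slc39a5 below, in numbers too small to read against that background. The median log2 fold change was -0.01 for the 6 members and 0.01 for all genes tested. Counted from the highest value in KO over WT, Mt1 and Mt2 stood at ranks 116 and 122, among the 1.12% of genes with a log2 fold change over 1. With 2 pools per group, 0.333 is the smallest two-sided p of an exact permutation test. The p-values measure the spread between pools of 3 mice, not between single mice.

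**Figure D2:**
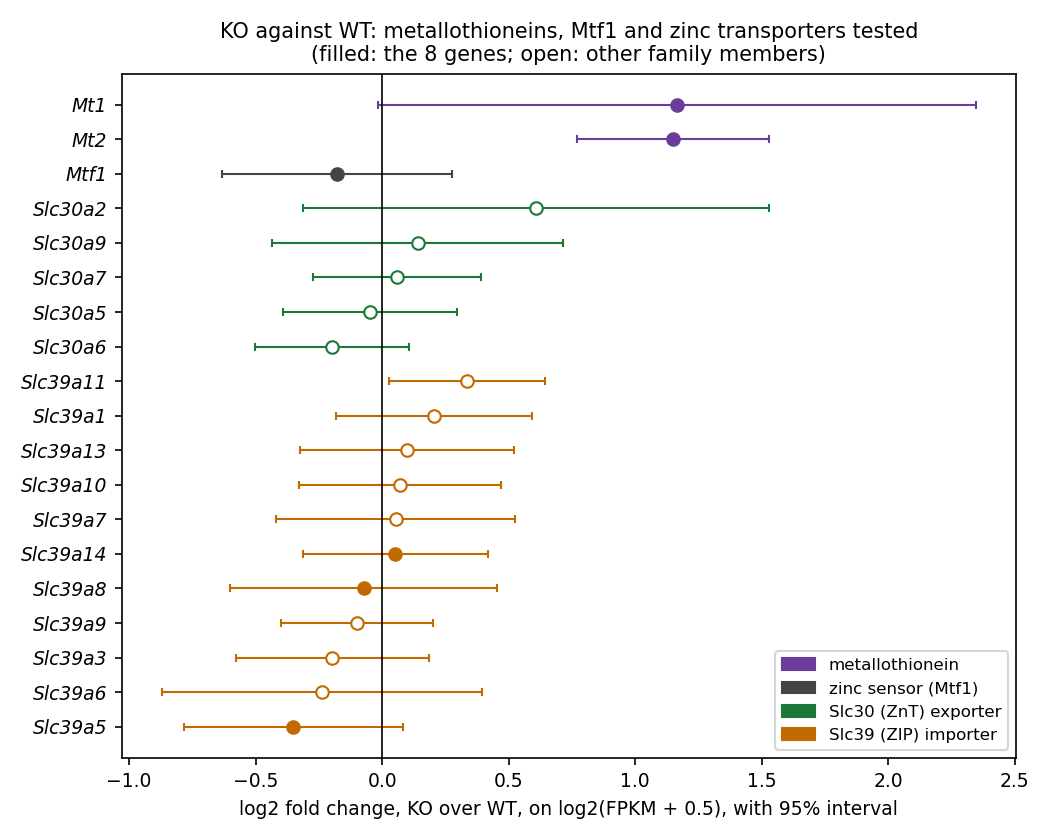
Log2 fold change of KO over WT on log2(FPKM + 0.5), with the 95% interval from limma (horizontal axis), for each metallothionein, Mtf1 and zinc transporter gene tested (vertical axis); filled circles are members of the 8 genes and open circles the rest of both transporter families. Mt1 and Mt2 have the highest values, 1.17 and 1.15, the interval of Mt1 reaches just below 0, and those of the 17 other genes are centred between -0.35 and 0.61.

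The transcription factor gene Mtf1 did not separate the groups. Mtf1 (ENSMUSG00000028890, chromosome 4, 124802104 to 124849800) was at 2.82 FPKM in WT1, 3.75 in WT2, 2.70 in KO1 and 2.94 in KO2. The pools of both groups overlapped, with WT2 the highest, and the log2 fold change was -0.18 (SE 0.17, 95% interval -0.63 to 0.27, adjusted p 0.862). Without WT2 it was -0.0026, and without WT1 it was -0.36 (adjusted p 0.539).

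Of both exporters among the 8 genes, neither could be tested. Slc30a1 (ENSMUSG00000037434, chromosome 1, 191906767 to 191913247), the zinc exporter of the plasma membrane, was at 0.439 FPKM in WT1, 0.277 in WT2, 0.821 in KO1 and 0.211 in KO2, from 37, 25, 72 and 18 reads. KO1 was the highest pool and KO2 the lowest, a ratio of 3.88 within 1 group, so the WT pools lay between the KO pools. Its mean was under the minimum of 0.5 FPKM for testing; in a fit without that minimum the log2 fold change was 0.18 (SE 0.36, adjusted p 0.915). Slc30a10 (ENSMUSG00000026614, chromosome 1, 185454848 to 185468762), which exports manganese, had 0 reads in each of the 4 libraries. A count of 0 allows up to 3 reads per library as a one-sided limit, which is 0.0299 to 0.0320 FPKM, or 3.69 reads by the two-sided 95% interval used for the other values, and a level under that cannot be told from 0 at this depth.

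Among the importers, Slc39a5 was the 1 member lower in both KO pools. Slc39a5 (ENSMUSG00000039878, chromosome 10, 128395931 to 128401229, reverse strand), a zinc importer of basolateral membranes, was at 31.7 FPKM in WT1, 27.9 in WT2, 26.2 in KO1 and 20.5 in KO2. The higher KO pool lay just under the lower WT pool, which was 1.07 times as high. The log2 fold change was -0.35 (SE 0.16, 95% interval -0.78 to 0.08), with an unadjusted p of 0.0899 and an adjusted p of 0.797. It rested in part on KO2: without that pool it was -0.18, and without KO1 it was -0.52.

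Slc39a14 and Slc39a8, importers that carry manganese and other metals as well as zinc, overlapped between the groups. Slc39a14 (ENSMUSG00000022094, chromosome 14, 70303469 to 70351425, reverse strand), also a carrier of iron not bound to transferrin, was at 8.29 and 7.05 FPKM in the WT pools and at 8.47 and 7.45 in the KO pools. Its log2 fold change was 0.05 (SE 0.14, 95% interval -0.31 to 0.42, adjusted p 0.955), and scaling each library to the same total turned it to -0.04. Slc39a8 (ENSMUSG00000053897, chromosome 3, 135825279 to 135888572) was at 4.13 and 2.88 FPKM in WT and at 3.03 and 3.51 in KO, with both KO values between the WT values. Its log2 fold change was -0.07 (SE 0.20, 95% interval -0.60 to 0.45, adjusted p 0.958). By mean level the 8 genes ran, over the full gene lengths, from Mt1 (294.4 FPKM) through Slc39a5 (26.6), Mt2 (22.2), Slc39a14 (7.82), Slc39a8 (3.39), Mtf1 (3.05) and Slc30a1 (0.437) to Slc30a10. The order of Slc39a5 and Mt2 differed between the groups, with Slc39a5 the higher in both WT pools (means 29.8 and 13.6 FPKM) and Mt2 in both KO pools (30.7 and 23.4). Their ranges overlapped over the 4 pools, as did those of Slc39a8 and Mtf1.

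**Figure D3:**
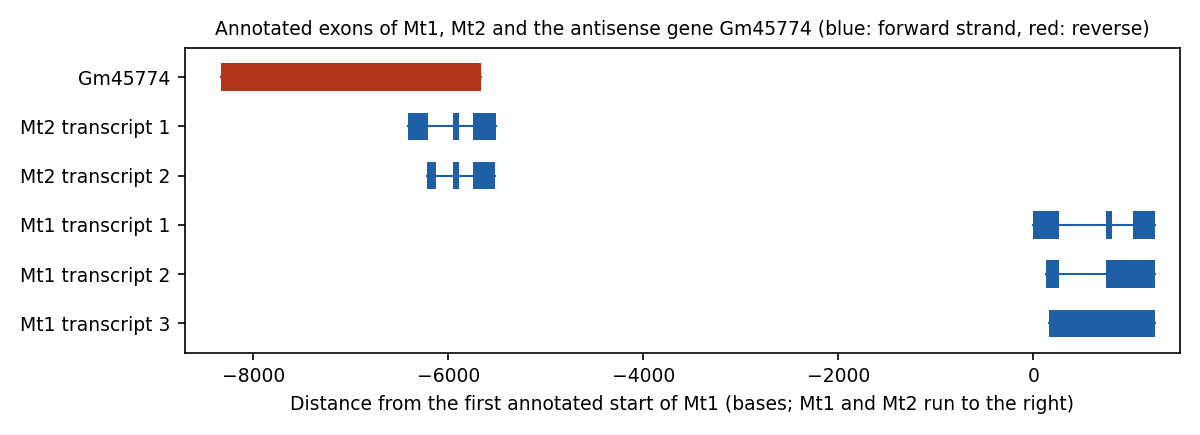
Annotated exons (boxes) of the 3 Mt1 and 2 Mt2 transcripts, in blue for the forward strand, and of the antisense gene Gm45774, in red for the reverse strand, by distance in bases from the first annotated start of Mt1. The single exon of Gm45774 covers all of Mt2 except its far end, 432 of 588 exonic bases.

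The level of Mt2 depends on how reads over an antisense gene were counted. Of the 588 exonic bases of Mt2, 432 (73.5%) are also exon of Gm45774 (ENSMUSG00000110588), an antisense gene on the reverse strand, and 156 are its own. Gm45774 itself had 9, 5, 10 and 10 reads in WT1, WT2, KO1 and KO2. The library protocol in the labels describes no step that marks the strand, and the counting tool is not given in the sources used here. In this table, of 36 protein-coding genes with no base of their own on either strand, though all of their bases were their own on their strand, 33 (91.7%) had 0 reads, against 26.8% of 15497 genes that overlap no other. Over its full length Mt2 gave a ratio of Mt1 to Mt2 of 16.3 and 10.04 in the WT pools and of 9.73 and 16.6 in the KO pools. With the reads of Mt2 set against its 156 own bases, the ratio was 4.33, 2.66, 2.58 and 4.40, so the level of Mt2 beside other genes is uncertain. Which of its bases gave counted reads is not known, so these ratios set no bound. On its own bases Mt2 would stand at 57.0, 45.8, 115 and 116 FPKM, above every pool of Slc39a5, the gene that exceeds it by mean level over the full length. The change of length is the same in every library and leaves the comparison of KO with WT as it is. Mt1 overlapped no other gene, and of 1292 windows of 50 bases in Mt1 and 554 in Mt2 none recurred in a transcript elsewhere in the genome. Small parts of Mtf1 (8.09%), Slc30a1 (8.92%) and Slc30a10 (9.13%, with Gm2061) are shared with genes on the other strand.

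The other metallothioneins were near the limit of detection. Mt3, known mainly from brain, had 4, 1, 7 and 18 reads in WT1, WT2, KO1 and KO2 (0.233, 0.0545, 0.393 and 1.04 FPKM). The KO pools were the higher ones, and the log2 fold change without the minimum was 0.88 (SE 0.34), with an unadjusted p of 0.0635 and an adjusted p of 0.824. Mt4, a gene of stratified epithelium, had 1 read in all, in KO2.

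Among all 10 Slc30 genes, 5 were tested, 3 with a higher and 2 with a lower mean in KO, and none passed the threshold. Slc30a2, which loads zinc into vesicles, was the most abundant of the 10 by mean level, at 32.1 FPKM in WT1, 16.0 in WT2, 37.8 in KO1 and 32.0 in KO2, with a log2 fold change of 0.61 (SE 0.35, adjusted p 0.798). WT2 was its lowest pool, as for Mt1, and the difference was 0.11 without WT2 and 1.10 without WT1 (adjusted p 0.993 and 0.300). Slc30a6, a partner of Slc30a5 in the secretory pathway, was at 9.06 and 8.78 FPKM in WT and at 8.15 and 7.29 in KO. It was the 1 exporter of the 5 tested with the KO pools lower than the WT pools (-0.20, SE 0.12, adjusted p 0.798). Such pools were found for 18.1% of all genes tested. Slc30a5 (-0.05), Slc30a7 (0.06) and Slc30a9 (0.14) overlapped between the groups. Slc30a4 had 0 reads in all libraries. Slc30a3 had 6 reads or fewer in each and Slc30a8 had 3, 1, 0 and 0.

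Of the 14 Slc39 genes, 11 were tested, 6 with a higher and 5 with a lower mean in KO. Slc39a11 was the 1 with an unadjusted p under 0.05. It was at 12.4 and 11.0 FPKM in WT and at 14.5 and 15.2 in KO. The log2 fold change was 0.34 (SE 0.12, unadjusted p 0.0385 in limma, adjusted p 0.785), where 3.29% of all genes tested had such a p in that direction. With equal totals, no trend and the replicate block, the unadjusted p of Slc39a11 in limma was 0.141, 0.0613 and 0.0722. Slc39a1, a plasma membrane importer and the most abundant of the family at 51.0, 61.5, 66.8 and 62.3 FPKM, was also highest in the KO pools, by a small margin (0.20, SE 0.15, adjusted p 0.828), and the difference was 0.07 without WT1. Slc39a9 (-0.10) had its KO pools below. Over all genes tested, 19.7% had the KO pools above and 18.1% below. Slc39a3 (-0.20), Slc39a6 (-0.24), Slc39a7 (0.05), Slc39a10 (0.07) and Slc39a13 (0.10) overlapped, with adjusted p-values from 0.831 to 0.967. For Slc39a7, 80.7% of the exonic bases are shared with the same-strand gene Gm20427, so its level of 1.27 to 1.59 FPKM is uncertain. Slc39a2, Slc39a4 and Slc39a12 had 20 reads or fewer in each library. Slc39a2, with 17, 20, 10 and 5 reads, and Slc39a4, with 18, 17, 16 and 5, were lowest in KO, with no overlap of the groups, and without the minimum their log2 fold changes were -0.38 (SE 0.13, unadjusted p 0.0406, adjusted p 0.824) and -0.27 (SE 0.19, adjusted p 0.824).

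Other gene groups that share metals or regulators with the metallothioneins were counted in the same fit, and no gene of any of them passed the threshold. Of 5 other genes reported as MTF1 targets, 4 were higher and 1 lower, with a median log2 fold change of 0.15, or 0.04 with quantile normalization. Gclc, the catalytic subunit of glutathione synthesis's first enzyme, had the highest value (0.67, SE 0.38, adjusted p 0.798), with overlapping pools at 138.1 and 90.8 FPKM in WT and 245.1 and 129.7 in KO. Its value rested on single pools, being 0.37 without WT2, 0.21 without KO1 and 1.13 without KO2. Slc40a1, the iron exporter ferroportin, had the lowest (-0.13), which was 0.01 without WT2 and 0.17 without KO2. Of 9 copper-handling genes, 6 were higher and 3 lower, with a median of 0.04 that was -0.04 without WT2 and 0.11 without KO2. The copper chaperone Atox1 was at 271.7 and 223.1 FPKM in WT and at 290.8 and 318.7 in KO (0.31, SE 0.18, adjusted p 0.803; 0.16 without WT2), and Cox17, which brings copper to cytochrome c oxidase, had the lowest value of the list (-0.23).

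Genes that respond to glucocorticoids or to IL-6, both known inducers of metallothioneins, were counted likewise. Of 10 glucocorticoid-responsive genes, 9 were higher in KO and 1 lower, with a median of 0.14, and Errfi1, Fkbp5 and Zbtb16 had an unadjusted p under 0.05 and higher KO pools that did not overlap the WT pools. Over all genes tested 51.4% were higher in KO, 3.29% had such a p in that direction and 19.7% had such pools. The median of the list was 0.08 without WT2, 0.40 without WT1, 0.31 without KO2 and 0.04 with equal totals. Fkbp5, a co-chaperone of the glucocorticoid receptor, was at 44.2 FPKM in WT1, 24.9 in WT2, 72.6 in KO1 and 58.9 in KO2 (0.97, SE 0.31, adjusted p 0.785), with WT2 the lowest pool, and without WT2 the difference was 0.56. Cebpd was the lowest of that list (-0.43), at -0.17 without KO2 and -0.68 without KO1. Of 10 IL-6 and acute phase genes 8 were tested, 2 higher and 6 lower, with a median of -0.04 that was -0.59 without KO1 and 0.12 without KO2. Lcn2, which encodes the tubular injury marker NGAL, was at 132.6 and 95.2 FPKM in WT and at 249.0 and 273.1 in KO, a log2 fold change of 1.21 (SE 0.21, unadjusted p 0.00299, adjusted p 0.613). Fgb had the lowest value (-0.71, SE 0.56), set by KO2 at 3.12 FPKM beside 11.0 in KO1.

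**Figure D4:**
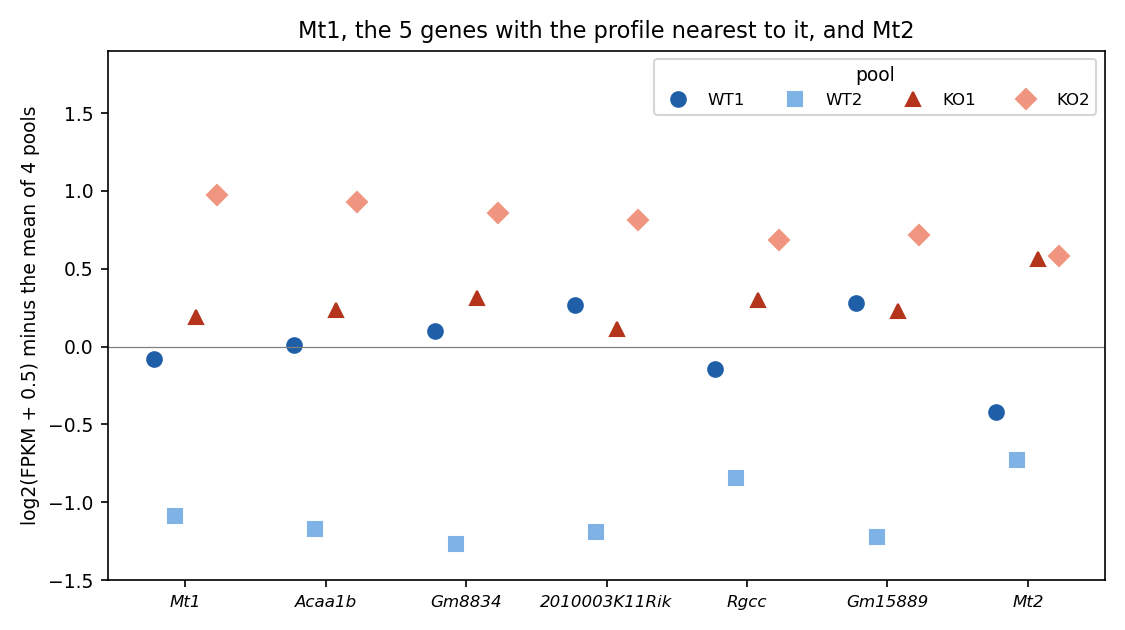
Values of log2(FPKM + 0.5) minus the mean of the 4 pools (vertical axis) for Mt1, the 5 genes with the nearest profile and Mt2 (horizontal axis), 1 symbol per pool. In Mt1 and the 5 genes WT2 is the lowest pool and KO2 the highest, with WT1 and KO1 between them, while in Mt2 both KO pools sit together above both WT pools.

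The profile of Mt1 over the pools was nearly that of Acaa1b and less like that of Mt2. Among 7868 genes with a mean of at least 5 FPKM, likeness was taken as the root mean square distance between centred log2 profiles over the 4 pools. Acaa1b, a thiolase of peroxisomal fatty acid oxidation, was nearest (0.069), at 374.5 FPKM in WT1, 164.4 in WT2, 436.6 in KO1 and 707.4 in KO2. The pseudogene Gm8834 (0.152), 2010003K11Rik (0.201), Rgcc (0.202) and the lincRNA Gm15889 (0.231) came next. Mt2 stood at rank 60, at a distance of 0.369. With 4 pools many genes share an order by the libraries alone, so these distances are a description.

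Among the 7 proximal tubule markers, Kap held 80.0% to 88.4% of the summed FPKM, so the sum of all 7 (10428, 5480, 6841 and 10536 in WT1, WT2, KO1 and KO2) follows that gene. Kap was lowest in WT2 and highest in KO2, as was Mt1, but WT1 stood above KO1 while its Mt1 was lower. Without Kap, a sum taken after its values were seen, the markers summed to 1452, 1093, 803 and 1220, lowest in KO1. Of the 7, 5 were lower in KO and 2 higher, with a median of -0.38. Slc34a1, Slc5a2, Lrp2 and Slc5a12 had the KO pools below the WT pools, Slc5a2 (-0.65) and Lrp2 (-0.38) with an unadjusted p of 0.0276 and 0.0390 in limma, while Slc22a6 had them above (0.73) and, at 233, 141, 236 and 383 FPKM in WT1, WT2, KO1 and KO2, followed the order of Mt1 over the pools. Over all genes tested 18.1% had the KO pools below and 3.03% such a p in that direction. Of 7 macrophage markers 6 were lower in KO and 1 higher, where 51.4% of all genes tested were higher in KO. Their sums were 126 and 292 in WT and 136 and 112 in KO, so WT1 lay between the KO pools and WT2 above them. Only 2 of the 7 had the KO pools below the WT pools. No marker of either list was at 0 in all libraries. The T cell markers summed to 0.715 or less in each library. The part of these cell types in the levels of Mt1, Mt2 and Slc39a5 was not tested.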

How the data were processed

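Each library was a pool of kidney RNA from 3 mice. The authors deposited FPKM per gene and library; per the submitters' processing notes HISAT2 2.0.5 and the builds mm10 and GRCm38.p6 were used, while the counting tool and its strand setting are not given in the sources used here. Multiplying each value by its gene's length recovered whole reads, within 0.01 of a read, for 100% of nonzero values (16045724 to 16927742 per library), which were used for depth, Poisson intervals and voom weights. Intervals and the floor of 3 reads cover counting error only, as the protocol names no molecular identifiers.

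KO and WT were compared by limma 3.58.1 (R 4.3.3; lmFit, eBayes with trend), two-sided, on log2(FPKM + 0.5). Genes needed a mean FPKM of 0.5 or more, which 15414 had, and p-values were adjusted over these by Benjamini-Hochberg, with a threshold of 0.05. This scale understates changes of low genes. The fit was tested on simulated data. The rest used Python 3.11.15. The study states an adjusted threshold but no model.

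Of the genes in the table, 53706 are in GENCODE M21, 97.1% with equal coordinates; promoters are from RefSeq (GRCm38.p6). The members, lists and tests were chosen with earlier results of these data known. Named genes were the members, Apela and the rest of the metallothionein, Slc30 and Slc39 families. The highest and lowest of each other list and the 5 genes nearest to Mt1 were also named. So were Ucp1 of the adipose markers and genes that overlap the members or their families. Errfi1, Zbtb16 and the proximal tubule markers were named after their values were seen. Alternatives were other pseudocounts, filters, scalings, no trend, a replicate block, voom weights, an unadjusted threshold and each pool left out.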

Additional observations from a re-analysis of the deposited data

How the results depend on the processing

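No gene, member or list gene passed the adjusted threshold under any alternative, so these counts of 0 carry no sign of stability; with an unadjusted p under 0.05 the counts were 974 genes, 1 member and 5 genes of the lists. Over the fits the unadjusted count ran from 687 to 1720, with voom weights on recovered reads at 970. Mt2 was in that count in all 13 alternative fits, Mt1 too with quantile normalization, equal totals, voom weights, and without WT replicate 1 or KO replicate 1, and Slc39a5 with equal totals and without KO replicate 1. The log2 fold change of Mt1 ran from 1.02 to 1.17 over alternatives and from 0.66 to 1.67 without 1 pool, that of Mt2 from 1.05 to 1.18 and from 1.00 to 1.30, and their adjusted p-values from 0.374 to 0.992 and from 0.292 to 0.923. Under the replicate block 0 genes passed and 932 had an unadjusted p under 0.05. Over all genes, same-numbered pools did not deviate together (correlation across genes -0.0017). This single value over all genes does not show whether the number pairs the pools for some genes. No adjusted call changed under the block, while Slc39a11 no longer had an unadjusted p under 0.05 (0.0722 in limma). The unadjusted p of Gclc in limma came under it, from 0.147 in the main fit to 0.0268.

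Equal totals shifted the median of all genes to -0.08 and reversed Slc39a14 (-0.043), Slc30a7 (-0.032), Slc39a7 (-0.025) and Slc39a10 (-0.024), none of which differed from 0 beyond its error. It also turned the medians of the other exporters (0.06 to -0.03), the other importers (0.06 to -0.02) and the copper genes (0.04 to -0.03). The median of the MTF1 targets went from 0.15 to 0.05 with equal totals. That of the other exporters was also -0.05 with no filter and -0.002 without WT2. For the other importers it was -0.05 without WT1 and -0.04 without KO2, and both kept their sign otherwise. Without 1 pool, values crossed 0 for Slc39a8 (-0.30 to 0.15), Slc39a14 (-0.057 to 0.16), Slc30a5 (-0.16 to 0.065), Slc30a9 (-0.11 to 0.40), Slc39a6 (-0.49 to 0.016), Slc39a7 (-0.067 to 0.17), Slc39a10 (-0.048 to 0.19), Slc39a13 (-0.083 to 0.28), Fgb (-1.54 to 0.13) and Slc40a1 (-0.42 to 0.17); the cause was not tested. Without 1 pool Slc39a1 ran from 0.07 to 0.34, Slc39a9 from -0.17 to -0.031, Slc39a3 from -0.33 to -0.061 and Slc30a6 from -0.27 to -0.12. Slc30a10 had no reads, Slc30a1 had 18 to 72, and each group had 2 pools.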
